A study of Mus musculus with 12 samples.

Results

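Here 6 genes were followed in mouse fetal liver alveolar-like macrophages: Ear1, Ear2, Ear6 and Ear10, which encode eosinophil-associated ribonucleases, and Chil3 and Chil1, which encode chitinase-like proteins. They were chosen by symbol, and they are 6 of the 40847 gene rows of the count table. Of these 6 genes, 5 passed the filter on low counts and were among the 14749 genes tested; Chil1 did not pass. The cells, labelled as a cell line, were macrophages grown from fetal liver, and no mouse strain, sex or number of donors is given in the labels. Recombinant mouse GM-CSF at 30 ng/ml was in the medium of every group. Untreated cells received nothing further, TGFβ cells were also kept with recombinant human TGFβ1 at 20 ng/ml, Pam3 cells received the TLR2 ligand Pam3CSK4 at 25 ng/ml for 18 h, and Pam3+TGFβ cells received both. Each of these 4 groups had 3 libraries of polyadenylated RNA, and the duration of the TGFβ exposure is not stated. The 2 by 2 design asks how TGFβ alters the resting state of the cells and their answer to a TLR2 stimulus.

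The Ear genes are the rodent members of the eosinophil-associated branch of the ribonuclease A superfamily. Their products are small secreted ribonucleases found in eosinophil granules, and several are also made by alveolar macrophages, where Ear1 and Ear2 serve as markers of the mature cell. Chil3 encodes Ym1, a secreted lectin of the glycoside hydrolase 18 fold that lacks chitinase activity; it is abundant in alveolar macrophages and in macrophages activated by IL-4 or IL-13. Chil1 encodes BRP-39, the mouse counterpart of human YKL-40. TGFβ and GM-CSF are both needed for alveolar macrophages to form and to keep their identity in the lung.

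Libraries held between 34036650 and 44374115 counted reads, and levels are given as CPM, each library's counts scaled to a common TMM-adjusted total. A gene was called changed where the adjusted p (Benjamini-Hochberg) of edgeR's quasi-likelihood test was under 0.05. All 16 alveolar macrophage markers were detected in every group. Siglecf, a surface lectin of alveolar macrophages and eosinophils, averaged 32.1 CPM in untreated and 300.4 CPM in TGFβ cells, whereas Marco, a scavenger receptor, averaged 2147 and 123 CPM. Among 8 eosinophil markers, Epx, Prg3, Ccr3, Il5ra and Gata1 had at most 3 counts in any library, and the list summed to between 0.794 and 1.83 CPM per library. The Ear counts below therefore came from libraries in which the defining eosinophil transcripts were at or near 0.

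The Ear genes are close paralogs, so how far their reads can be told apart comes before their values. In GRCm39, Ear1 (chr14:44056222-44112974, minus strand), Ear10 (chr14:44160177-44161016, minus strand) and Ear2 (chr14:44311771-44340996, plus strand) lie together, while Ear6 (chr14:52091156-52092100, plus strand) lies farther along the same chromosome; each has 2 exons. The coding sequence of Ear2 was 97.0% identical to that of Ear10 and 95.1% identical to that of Ear1, and Ear6 was 87.3% to 87.6% identical to the other members. The first 120 coding bases, taken from the reference, show what a short read has to tell these genes apart; capitals mark bases that differ from Ear2.
Ear2 (chr14:44340344-44340463, plus strand): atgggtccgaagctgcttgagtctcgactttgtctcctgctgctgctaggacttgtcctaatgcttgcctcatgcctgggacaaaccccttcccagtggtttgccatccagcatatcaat
Ear10 (chr14:44160706-44160825, minus strand): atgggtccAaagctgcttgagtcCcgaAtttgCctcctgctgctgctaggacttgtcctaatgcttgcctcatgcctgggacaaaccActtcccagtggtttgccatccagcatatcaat
Ear1 (chr14:44056747-44056866, minus strand): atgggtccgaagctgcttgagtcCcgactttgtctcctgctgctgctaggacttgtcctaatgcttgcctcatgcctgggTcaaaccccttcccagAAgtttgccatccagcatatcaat
Ear6 (chr14:52091455-52091574, plus strand): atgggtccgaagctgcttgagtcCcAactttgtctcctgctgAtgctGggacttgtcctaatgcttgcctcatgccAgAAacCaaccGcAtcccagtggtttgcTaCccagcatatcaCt
In this stretch Ear10 differed from Ear2 at 5 bases, Ear1 at 4 and Ear6 at 13. The Ear1 stretch had 2 exact matches on the chromosome, so part of Ear1 also exists elsewhere in the locus.

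Over whole transcripts, 60.1% of the 50-base windows of Ear1 occurred exactly in another gene or elsewhere in the locus, against 49.3% for Ear2, 47.4% for Ear10 and 4.07% for Ear6. With 100-base windows the shares were 24.8% for Ear1, 22.9% for Ear2, 25.2% for Ear10 and 0% for Ear6. With 150-base windows they were 5.67%, 7.48%, 6.81% and 0%. The labels give a paired format of 150 bases but a reagent kit of 100 cycles, so the read length, and with it which of these shares applies, is uncertain. At 100 bases Ear2 shared windows with Ear10 but not with Ear1, whose partners were Ear10, the pseudogene Ear-ps9 and the gene model Gm63584. Reads of Ear1, Ear2 and Ear10 may therefore have been divided between rows or dropped, and how the authors' counting treated reads with several matches is not given in the sources used here. Reads of Ear6 are the most separable of the Ear reads. Chil3 shared 29.4% of its 50-base windows and 5.42% of its 100-base windows, and 0% of its 150-base windows, with other sequence: its neighbour Chil4, whose coding sequence is 94.4% identical, the gene model Gm6522 and other stretches of the locus.

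Ear2 had the highest level of the Ear genes per kilobase of mRNA, 903 CPM in untreated cells, and rose with TGFβ. The 3 untreated libraries held 666, 671 and 624 CPM of Ear2, and the 3 TGFβ libraries held 1528, 1528 and 1426 CPM. Libraries given Pam3 alone held 518, 535 and 540 CPM, and those given both agents 806, 858 and 793 CPM. None of the 4 groups overlapped: TGFβ alone was highest, both agents together came next, and Pam3 alone was lowest. TGFβ raised Ear2 2.28-fold without Pam3 (log2 fold change 1.19, SE 0.0530, adjusted p = 6.42e-16) and 1.54-fold with Pam3 (log2 0.63, SE 0.0525, adjusted p = 2.32e-10). In bulk RNA, fewer cells of a type and less RNA per cell cannot be told apart, and this holds for every difference given here.

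Ear1 showed the largest fold change with TGFβ of the 5 tested members, from a low starting level. Untreated libraries held 5.26, 4.84 and 5.05 CPM, from 177 to 201 counts each, and libraries given Pam3 alone held 4.21, 5.68 and 5.08 CPM. With TGFβ the values were 70.6, 78.1 and 68.3 CPM, and with both agents 48.4, 46.1 and 43.9 CPM. Every library with TGFβ was above every library without it, and the Pam3+TGFβ libraries were all below the TGFβ libraries. TGFβ raised Ear1 14.3-fold without Pam3 (log2 3.84, SE 0.0937, adjusted p = 3.18e-21) and 9.24-fold with Pam3 (log2 3.21, SE 0.0936, adjusted p = 1.47e-19). These fold changes ranked 59 and 85 from the top among the 14749 tested genes.

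Ear10 followed the same order of groups as Ear2 at a lower level per kilobase of mRNA. Untreated libraries held 31.3, 29.8 and 23.7 CPM of Ear10, and TGFβ libraries 67.3, 60.8 and 60.7 CPM. The Pam3 libraries held 21.6, 21.6 and 23.5 CPM, and those given both agents 37.7, 37.2 and 38.4 CPM. The groups did not overlap, although the third untreated library (23.7 CPM) and the third Pam3 library (23.5 CPM) were nearly level. TGFβ raised Ear10 2.22-fold without Pam3 (log2 1.15, SE 0.0804, adjusted p = 5.89e-12) and 1.70-fold with Pam3 (log2 0.77, SE 0.0819, adjusted p = 1.99e-08).

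Ear6 went the other way. Its untreated libraries held 11.4, 13.4 and 14.9 CPM and its Pam3 libraries 11.6, 12.4 and 15.3 CPM. With TGFβ it fell to 7.72, 8.62 and 8.41 CPM, and with both agents to 8.47, 7.44 and 7.45 CPM. Every library with TGFβ was below every library without it, while Pam3 left the groups overlapping. TGFβ lowered Ear6 1.60-fold without Pam3 (log2 -0.68, SE 0.117, adjusted p = 2.50e-05) and 1.68-fold with Pam3 (log2 -0.75, SE 0.118, adjusted p = 8.73e-06).

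Chil3 had the highest level per kilobase of the 5 tested genes in every group and rose with TGFβ. It lies on chromosome 3 (chr3:106054870-106074880, minus strand, GRCm39) and has 11 exons. Untreated libraries held 2905, 3098 and 2859 CPM, and TGFβ libraries 5205, 5082 and 4827 CPM. Pam3 libraries held 2926, 2702 and 2682 CPM, overlapping the untreated range, and Pam3+TGFβ libraries held 4485, 4519 and 4422 CPM, below the TGFβ range. TGFβ raised Chil3 1.71-fold without Pam3 (log2 0.77, SE 0.0539, adjusted p = 5.61e-12) and 1.62-fold with Pam3 (log2 0.69, SE 0.0538, adjusted p = 5.36e-11). Neutrophils can also express Chil3. Of 12 neutrophil markers 6 were tested, and with TGFβ 2 were called higher (S100a9 and Camp), 2 lower (Mmp8 and S100a8) and 2 were not called, beside 22.9% of all tested genes called higher and 28.1% lower. Their median log2 fold change was 0.77, but the tested markers other than Mmp8 and S100a8 were at 1.38 CPM or less in these libraries, and the summed list fell from 481 to 513 CPM per untreated library to 94.1 to 96.1 CPM per TGFβ library. Ly6g, Mpo and Retnlg had at most 3 counts in any library. The part of such cells in the Chil3 result was not tested.

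Chil1 was at the edge of detection. The gene, annotated as Chi3l1 in GRCm39 (chr1:134109889-134117919, plus strand, 10 exons), had 4, 0 and 2 counts in the untreated libraries and 0, 1 and 1 with TGFβ. With Pam3 it had 0, 6 and 0 counts, and with both agents 0 in all 3 libraries. A count of 0 allows up to 3 counts, which is between 0.0677 and 0.0953 CPM in these libraries, counting error only. Differences in Chil1 between groups were not detectable at this depth. Ear14, an Ear gene outside the 6, had 0 counts in all 12 libraries.

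**Figure D1:**
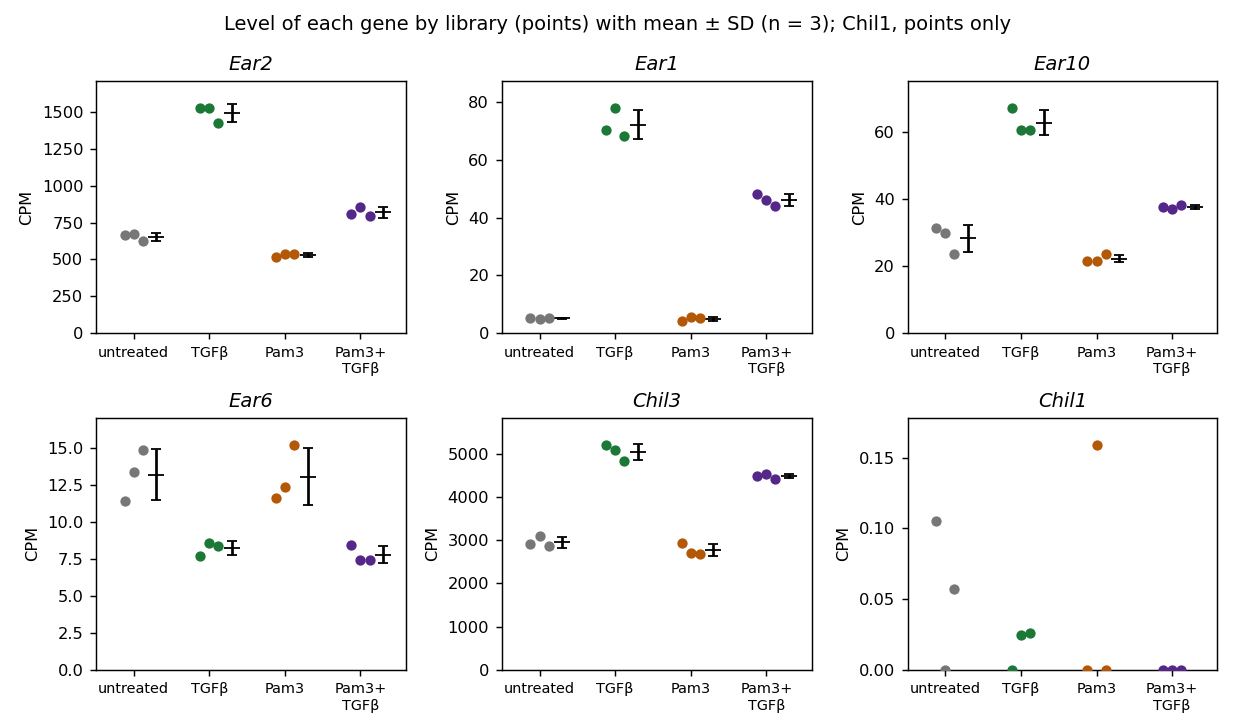
Level of each gene in CPM (linear axes from 0) in each of the 12 libraries, with the mean and SD of each group of 3 at the side. For Ear2, Ear1, Ear10 and Chil3 the TGFβ points lie above all other groups, for Ear6 both groups with TGFβ lie below both without it, and Chil1, drawn as points only, rests on 0 to 6 counts.

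Levels can be compared between genes only per length. On the scale of CPM per kilobase of mRNA, untreated cells ranked Chil3 (1919 ± 82.4, SD, n = 3), Ear2 (903 ± 35.8), Ear10 (41.7 ± 5.91), Ear6 (18.6 ± 2.42) and Ear1 (7.08 ± 0.298), with no overlap between neighbours. Pam3 alone kept this order. With TGFβ alone, Ear1 (101 ± 7.18) stood beside Ear10 (92.8 ± 5.56) and the libraries of the pair overlapped, while Ear6 (11.6 ± 0.658) became the lowest. With both agents, Ear1 (64.7 ± 3.11) was above Ear10 (55.7 ± 0.857) in every library. The aligner named in the labels does not split reads across introns: 41.1% of the 100-base windows of the Chil3 mRNA lie within 1 exon, against 89.4% to 95.9% for the Ear genes, and the effect of this on the Chil3 level was not tested.

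Across the comparison of TGFβ with untreated cells, all 5 tested members were called, 4 higher and 1 lower, beside 51.0% of all tested genes called (22.9% higher and 28.1% lower). In the comparison of TGFβ within Pam3-treated cells, the same 5 were called in the same directions, beside 45.3% of all genes (21.5% higher and 23.8% lower). The median log2 fold change of the tested members was 1.15 without Pam3 and 0.69 with it, where the median of all tested genes was -0.01 and 0.00. With so many genes called in general, a call by itself sets a member apart little.

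The Pam3 response of the members was downward wherever it was called. Without TGFβ, Pam3 lowered Ear2 1.23-fold (log2 -0.30, SE 0.0524, adjusted p = 0.000129) and Ear10 1.27-fold (log2 -0.35, SE 0.0825, adjusted p = 0.00322), so 2 of 5 tested members were called lower and 0 higher, beside 18.3% of all genes called (8.66% lower and 9.62% higher). For the other members, none of which was called, the log2 fold change was -0.02 for Ear1 (95% interval -0.22 to 0.19), -0.02 for Ear6 (-0.24 to 0.20) and -0.09 for Chil3 (-0.20 to 0.01). With TGFβ present, Pam3 lowered 4 of 5 and raised 0, beside 38.5% of all genes called (18.1% lower and 20.4% higher). Ear2 fell 1.82-fold (log2 -0.87, SE 0.0527, adjusted p = 5.60e-13), Ear10 1.67-fold (log2 -0.74, SE 0.0793, adjusted p = 3.14e-08) and Ear1 1.57-fold (log2 -0.65, SE 0.0785, adjusted p = 2.09e-07). Chil3 fell only 1.13-fold (log2 -0.17, SE 0.0536, adjusted p = 0.0130), and Ear6 was not called (log2 -0.09, 95% interval -0.32 to 0.15).

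The interaction term tests whether the Pam3 response differed with and without TGFβ, and equally whether the TGFβ effect differed with and without Pam3. It was called for 3 of the 5 tested members, all negative, beside 15.9% of all tested genes called (5.67% negative and 10.3% positive). The response of Ear1 to Pam3 was more negative with TGFβ than without (interaction -0.63 on the log2 scale, SE 0.130, adjusted p = 0.000958). For Ear2 the interaction was -0.57 (SE 0.0740, adjusted p = 2.74e-06) and for Ear10 it was -0.39 (SE 0.114, adjusted p = 0.0203). The Ear10 call depended on single libraries: its adjusted p was 0.0723 without untreated library 3 (log2 -0.27), 0.0513 without TGFβ library 1 (-0.36) and 0.0710 without Pam3 library 3 (-0.34). For Ear6 the interaction was -0.07 (95% interval -0.39 to 0.26) and for Chil3 -0.08 (-0.23 to 0.07), and neither was called.

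**Figure D2:**
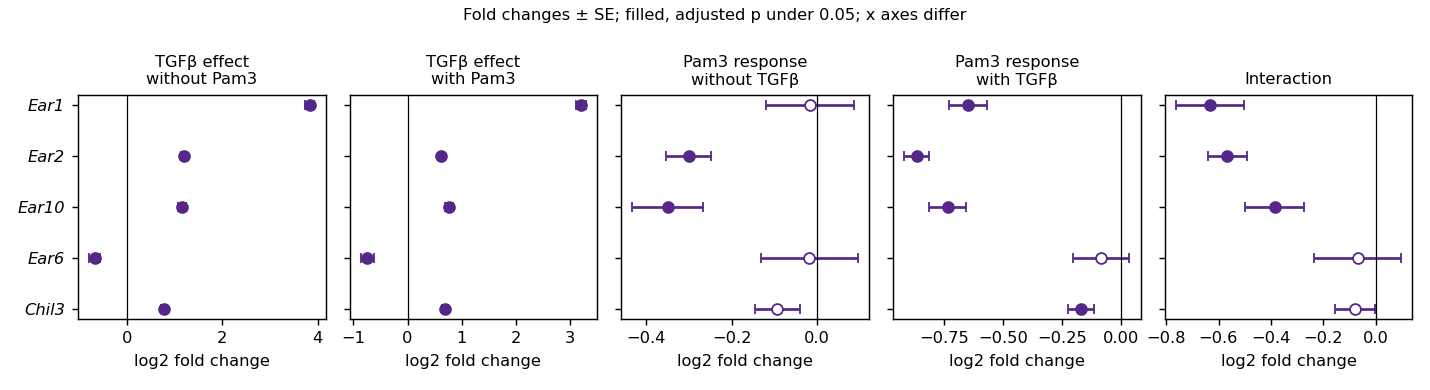
Log2 fold change with its SE (x axes, scaled separately) for each tested gene in the 4 pairwise comparisons and for the interaction, with filled points for an adjusted p under 0.05. Ear1 stands far right in both TGFβ panels, at 3.84 and 3.21, Ear6 lies left of 0 there, and Ear1, Ear2 and Ear10 lie left of 0 in the interaction panel.

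The counts of the Ear1, Ear2, Ear6, Ear10 and Ear14 rows were also added up. Reads exchanged among these rows stay in the sum, while reads exchanged with pseudogenes or other gene models of the locus do not. Untreated libraries averaged 700.5 ± 28.4 CPM of summed Ear counts (SD, n = 3) and TGFβ libraries 1637 ± 64.5 CPM. The sum was 571 ± 14.4 CPM under Pam3 alone and 911 ± 34.4 CPM under Pam3+TGFβ. Its log2 ratio was 1.23 for TGFβ without Pam3 and 0.67 with it, and -0.29 for Pam3 without TGFβ and -0.85 with it. Ear2 made up between 89.5% and 93.5% of the sum in every library, so the sum is close to a reading of Ear2.

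Ratios of counts within a library show which paralogs moved apart. Ear10 stood between 3.80% and 4.84% of Ear2 in all 12 libraries, a range of 1.27-fold, while Ear2 itself changed. As reads may be shared between these rows, whether Ear10 changed independently of Ear2 was not tested. An exact permutation test of the log2 ratio, exchanging TGFβ labels within the libraries with and within those without Pam3, gave a difference of 0.06 (two-sided p = 0.375, adjusted p = 0.500 over 8 such tests), and exchanging Pam3 labels gave 0.05 (p = 0.455, adjusted p = 0.520). Ear1 by contrast was 0.789%, 0.720% and 0.809% of Ear2 in untreated libraries and 4.62%, 5.11% and 4.79% in TGFβ libraries, and 0.813%, 1.06% and 0.942% with Pam3 against 6.00%, 5.37% and 5.54% with both. The Ear1 to Ear2 ratio was thus higher in every library with TGFβ, by 2.62 on the log2 scale (exact permutation p = 0.005, the smallest the 400 assignments can give, adjusted p = 0.0133). It was also 0.25 higher with Pam3 (exact permutation p = 0.005, adjusted p = 0.0133), a small difference beside that with TGFβ. Counts of Ear1 were therefore not a fixed fraction of those of Ear2.

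Ear6 relative to Ear2 moved opposite to Ear1 with TGFβ and in the same direction with Pam3. It averaged 2.03 ± 0.335% (SD, n = 3) in untreated and 2.46 ± 0.318% in Pam3 libraries, and 0.553 ± 0.0433% with TGFβ and 0.953 ± 0.0921% with both. The ratio was lower with TGFβ (log2 difference -1.62, exact permutation p = 0.005, adjusted p = 0.0133) and 0.53 higher with Pam3 (exact p = 0.015, adjusted p = 0.0300). Chil4, the neighbour of Chil3, stayed between 1.65% and 1.93% of Chil3 in all 12 libraries. Neither the TGFβ difference of that ratio (-0.01, exact permutation p = 0.680, adjusted p = 0.680) nor the Pam3 difference (-0.05, p = 0.320, adjusted p = 0.500) passed the threshold. These pairs were chosen after the levels were seen.

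**Figure D3:**
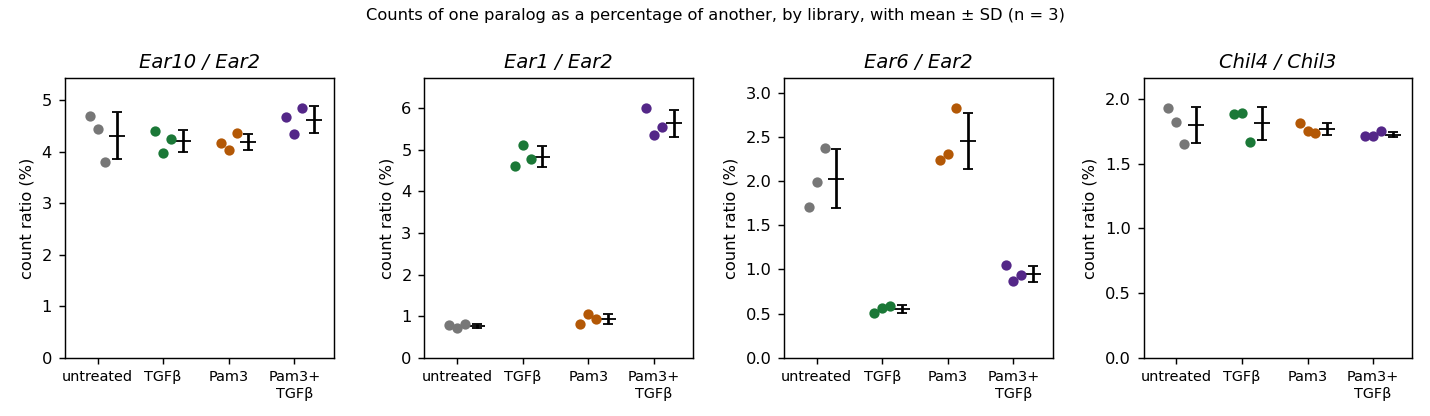
Counts of a gene as a percentage of the counts of its paralog (linear axes from 0) in each of the 12 libraries, with the mean and SD of each group of 3. Ear10 to Ear2 and Chil4 to Chil3 are level across groups, Ear1 to Ear2 is higher and Ear6 to Ear2 lower in both groups with TGFβ.

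None of the tested relatives in the ribonuclease A list was called higher with TGFβ. Of 15 listed relatives, among them the cytosolic ribonuclease inhibitor Rnh1, 6 were tested, and with TGFβ 5 were called lower and 0 higher, both without and with Pam3, beside 28.1% and 23.8% of all tested genes called lower; the median over those tested was -1.66 and -1.91 on the log2 scale. Rnase6, an antimicrobial ribonuclease of monocytes and macrophages, held 15.5, 14.8 and 12.7 CPM untreated and 1.72, 2.15 and 2.25 CPM with TGFβ (log2 -2.81, SE 0.166, adjusted p = 2.47e-13). Rnase2b, of the same eosinophil-associated branch, went from 2.37, 2.48 and 2.08 CPM to 0.470, 0.222 and 0.524 CPM (log2 -2.51, SE 0.392, adjusted p = 6.71e-06). Rnase2a had 166, 118 and 138 counts in untreated and 3, 3 and 1 in TGFβ libraries, a ratio of summed counts, scaled by library size, of 60.4 (95% exact interval 29.0 to 151, counting error only). Its groups did not overlap, and in the fit it was called lower (adjusted p = 1.79e-11). Rnase10, too low to be tested, had 1, 2 and 2 counts with Pam3 and 16, 5 and 0 with both agents.

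Rnase4 went from 32.8, 33.3 and 31.1 CPM to 21.2, 19.8 and 18.2 CPM with TGFβ (log2 -0.72, SE 0.0777, adjusted p = 2.12e-08). Its neighbour Ang, which encodes angiogenin, was not called (log2 -0.09, 95% interval -0.63 to 0.45); the annotated genes overlap, so their reads are not fully separable. Rnh1, which binds and blocks many ribonucleases of this superfamily, averaged 348 ± 33.2 CPM (SD, n = 3) untreated and 199 ± 5.73 CPM with TGFβ (log2 -0.80, SE 0.0518, adjusted p = 1.52e-12). Pam3 lowered 3 of the 6 without TGFβ, namely Rnase4 (log2 -0.81), Rnase6 (-0.47) and Rnh1 (-0.38), beside 8.66% of all tested genes. With TGFβ it lowered 4 of 6, these and Ang (-0.85, adjusted p = 0.0213), beside 18.1% of all genes. None of the 6 had a called interaction, beside 15.9% of all genes; Rnase6 had the smallest adjusted p there, 0.176.

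Ribonuclease genes called higher and those called lower lay in separate stretches of chromosome 14. Ear1, Ear10 and Ear2 lie within a stretch of 285 kb, and all 3 rose with TGFβ. The other tested relatives on the chromosome, Rnase4, Ang, Rnase6, Rnase2b, Rnase2a and Ear6, lie 6.99 Mb farther along within 764 kb, and 5 of these 6 fell while Ang was not called. Both counts were the same with Pam3 present. For scale, TGFβ raised 22.9% and lowered 28.1% of the whole tested set without Pam3, and 21.5% and 23.8% under Pam3. This grouping by position was made after the values were seen and was not tested. Ear6, by sequence an Ear gene, thus lies beside the relatives that fell and away from the other Ear genes. Ang5, which lies among the Ear genes that rose, had 0 counts in all 12 libraries.

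**Figure D4:**
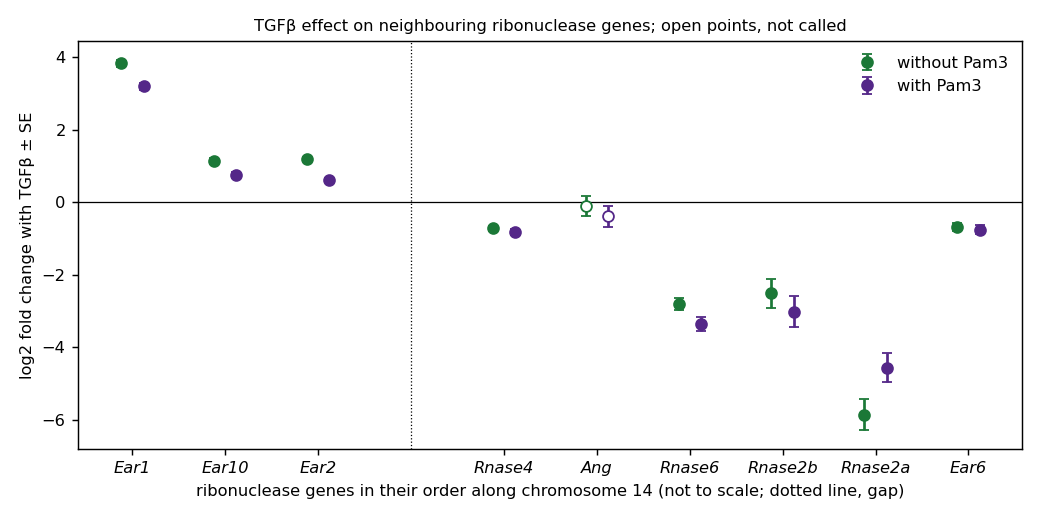
Log2 fold change with TGFβ and its SE (y axis) for the tested ribonuclease genes of chromosome 14 in their order along it (x axis, not to scale), without and with Pam3. Ear1, Ear10 and Ear2 lie above 0, the genes beyond the gap at or below it; the fitted Rnase2a value rests on 1 to 3 counts per TGFβ library and depends on the prior count.

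The proximal promoters of the 4 Ear genes are close in sequence over the bases that align, and that of Ear6 differs mainly by gaps. Over the 250 bases before the start site (RefSeq, GRCm38.p6 table, located by exact match in GRCm39), Ear1 and Ear2 were 97.6% identical, Ear1 and Ear10 91.7% and Ear2 and Ear10 90.6%. Ear6 was 78.2% identical to Ear1 and 77.3% to Ear2, gap columns counted as mismatches, with 42 and 46 such columns. Without gap columns Ear6 was 92.6% identical to Ear1 and 93.0% to Ear2, near the 93.9% and 94.3% of Ear10 with the same genes. The windows end at the start of the canonical GRCm39 transcript; 1 annotated transcript of Ear1 and 4 of Ear2 start farther upstream, the other Ear6 transcript starts within the Ear6 window shown, and which start the counted reads came from was not tested. The promoters of Ear2, Ear1 and Ear6 are shown because these genes differed in level and in direction with TGFβ; capitals mark bases that do not match Ear2 in a global alignment.
Ear2 (chr14:44339861-44340110, plus strand): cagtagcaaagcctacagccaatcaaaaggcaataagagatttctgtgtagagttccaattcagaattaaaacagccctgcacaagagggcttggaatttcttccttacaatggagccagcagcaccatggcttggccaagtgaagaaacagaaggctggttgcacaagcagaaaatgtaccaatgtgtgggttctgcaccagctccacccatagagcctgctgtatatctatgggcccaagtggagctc
Ear1 (chr14:44057097-44057346, minus strand): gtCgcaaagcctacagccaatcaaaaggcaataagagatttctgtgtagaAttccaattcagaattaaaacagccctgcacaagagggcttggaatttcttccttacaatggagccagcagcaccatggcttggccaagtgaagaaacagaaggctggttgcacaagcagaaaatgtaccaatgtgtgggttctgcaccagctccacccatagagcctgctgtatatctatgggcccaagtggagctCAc
Ear6 (chr14:52090975-52091224, plus strand): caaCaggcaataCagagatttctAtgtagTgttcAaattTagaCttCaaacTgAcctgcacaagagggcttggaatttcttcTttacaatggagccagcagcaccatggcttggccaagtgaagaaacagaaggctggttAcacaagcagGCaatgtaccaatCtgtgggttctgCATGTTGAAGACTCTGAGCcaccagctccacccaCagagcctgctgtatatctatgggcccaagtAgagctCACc
Ear1 carried 4 such bases and Ear6 carried 39, including an unmatched run in its downstream part. Thus Ear1, raised 14.3-fold by TGFβ, and Ear2, raised 2.28-fold, have windows at their canonical starts that are nearly the same in sequence, while their untreated levels per kilobase were 7.08 and 903 CPM.

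Letters of known binding motifs were searched on both strands of the same windows, without bases after the start. CAGAC, the letters of a SMAD-binding element, occurred in 42.2% of the 32851 promoters; it was in those of Ear10, Rnase2a and Rnase2b and not in those of Ear1, Ear2, Ear6 or Chil3. TTCNNNGAA, the form bound by STAT5, occurred in 7.02% of promoters, and in those of Chil3 and Chil4. Their motif lies in a stretch that is nearly the same in both genes, with the motif in capitals.
Chil3 (chr3:106075024-106075072, minus strand): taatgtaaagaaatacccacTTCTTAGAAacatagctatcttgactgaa
Chil4 (chr3:106126967-106127015, minus strand): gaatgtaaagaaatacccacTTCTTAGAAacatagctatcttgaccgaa
The motif ends 164 bases before the annotated GRCm39 start of the gene in both. The RefSeq windows of the pair begin at different offsets, so their global alignment held 58 gap columns of 279, and 91.0% of the bases aligned without a gap were identical. The STAT6-type motif, with a wider spacer (5.85% of promoters), and TGANTCA, an AP-1 form (6.75%), were in none of the Ear, Chil3, Chil4, Chil1, Rnase2a or Rnase2b windows. GAGGAA, a PU.1 core (23.3%), was only in that of Rnase2a among these. A match describes letters in the window and shows no binding.

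Among relatives of Chil3, the counts of Chil4 (Ym2) changed alongside it. Of the Chil4 windows, 20.5% at 50 bases, 3.75% at 100 and 0% at 150 also occurred in other sequence. The Chil4 row may therefore hold reads of Chil3, which was not tested. It went from 55.9, 56.4 and 47.1 CPM untreated to 97.8, 96.0 and 80.4 CPM with TGFβ (log2 0.78, SE 0.0762, adjusted p = 6.98e-09), and its Pam3 response with TGFβ was -0.24 (SE 0.0754, adjusted p = 0.0121). Of the 8 listed genes of the glycoside hydrolase 18 family, 4 were tested; with TGFβ in resting cells 1 was called higher (Chil4) and 2 lower, beside 51.0% of all tested genes called, and under Pam3 1 higher and 1 lower, beside 45.3%. The lower genes in resting cells were Chid1, a lysosomal chitinase-domain protein, at 40.6 ± 3.66 CPM (SD, n = 3) untreated and 23.0 ± 1.15 with TGFβ (log2 -0.82, adjusted p = 2.96e-09), and Ctbs, the lysosomal chitobiase (log2 -0.23, adjusted p = 0.0200), which was not called under Pam3 (log2 -0.06, adjusted p = 0.548). Ctbs rose with Pam3, by 0.27 without TGFβ (adjusted p = 0.0173) and 0.44 with it (adjusted p = 8.48e-05). Ovgp1 was not called in any comparison.

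Genes that mark alternative activation, the state in which Chil3 is best known, did not move as a block with it. Of 12 listed, 10 were tested; with TGFβ 3 rose and 6 fell in resting cells, and likewise 3 and 6 under Pam3 (51.0% and 45.3% of all tested genes were called), with a median log2 fold change of -0.60 and -0.45. The mannose receptor Mrc1 fell with TGFβ from 1864 ± 167 to 970 ± 7.16 CPM (log2 -0.94, adjusted p = 6.90e-13), and the transcription factor Egr2 fell by 0.25 (adjusted p = 0.000171). Tgm2, a transglutaminase, rose by 0.43 (adjusted p = 0.00336). Pam3 raised Tgm2 by 0.74 without TGFβ (adjusted p = 0.000236), a direction in which no Ear or Chil3 change was called.

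Of 18 listed receptors and factors that act upstream of these genes, 17 were tested; with TGFβ 5 rose and 10 fell in resting cells, and 6 rose and 8 fell under Pam3, where 22.9% of all tested genes rose and 28.1% fell in the first comparison and 21.5% and 23.8% in the second. Pparg, the nuclear receptor that GM-CSF induces in alveolar macrophages, rose from 117 ± 3.95 to 225 ± 4.03 CPM with TGFβ (log2 0.94, SE 0.0448, adjusted p = 2.34e-15) and fell with Pam3 by 0.39 both without and with TGFβ. Its interaction was 0.00 (adjusted p = 0.993), where those of Ear1 and Ear2 were negative. Cebpb rose by 0.56 with TGFβ (adjusted p = 0.000850). The GM-CSF receptor chain Csf2rb was lower with TGFβ without Pam3 (log2 -0.28, adjusted p = 4.67e-05), and the log2 difference was 0.08 with Pam3 (adjusted p = 0.245). Its paralog Csf2rb2 went in opposite directions, -0.20 without Pam3 and 0.26 with it, with a called interaction (0.46, adjusted p = 3.93e-05). Spi1, encoding PU.1, was not called with TGFβ in either setting (log2 -0.09 and 0.10).

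The alveolar macrophage markers went in both directions with TGFβ: of 16 tested, 8 rose and 7 fell in resting cells, and the same numbers under Pam3, beside 51.0% and 45.3% of all tested genes called. Siglecf moved in the directions of Ear2, higher with TGFβ (log2 3.22, adjusted p = 3.74e-23), lower with Pam3 in TGFβ cells (-0.97, adjusted p = 2.82e-13) and with a negative interaction (-0.66, adjusted p = 1.67e-06). Marco had the reverse pattern, falling with TGFβ (log2 -4.12, adjusted p = 7.11e-23) while its interaction term was 1.58 (adjusted p = 1.24e-11). Car4, a carbonic anhydrase, rose with TGFβ (0.79, adjusted p = 1.65e-11) and with Pam3 (0.90, adjusted p = 2.01e-11), and Plet1 by 0.15 with TGFβ (adjusted p = 0.0126). Atp6v0d2, a subunit of the vacuolar proton pump, fell by 0.22 with TGFβ (adjusted p = 0.000573).

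Summed markers of other cells were at most 25.1 CPM per library, with the exception of the neutrophil list. The dendritic cell marker Clec9a averaged 16.7 CPM in untreated cells, where Ear6 averaged 13.2 CPM and Ear1 5.05 CPM. Mast cell and basophil markers summed to between 0.319 and 1.32 CPM per library, erythroid markers to at most 0.637 CPM, dendritic cell markers to between 16.8 and 25.1 CPM and hepatocyte markers to between 5.80 and 10.2 CPM. Some of these markers moved with TGFβ without Pam3. Of 2 mast cell and basophil markers tested, the transcription factor Gata2 was called higher (log2 2.78, adjusted p = 0.00104) and the mast cell carboxypeptidase Cpa3 lower (log2 -4.00, adjusted p = 0.00137). Of 3 dendritic cell markers tested, the receptor Clec9a was called higher (log2 0.29, adjusted p = 0.0137) and the transcription factor Zbtb46 lower (log2 -1.70, adjusted p = 8.31e-07), beside 22.9% of all tested genes called higher and 28.1% lower. With Pam3 present, TGFβ instead lowered Clec9a (log2 -0.25, adjusted p = 0.0401). Of the same 3 markers, 0 were then called higher and 2 lower, beside 21.5% and 23.8% of all tested genes. Clec9a was called lower with Pam3 in TGFβ-treated cells (log2 -0.40, adjusted p = 0.00176), and its interaction term was -0.54 on the log2 scale (adjusted p = 0.00673). Afp, a fetal liver protein and the hepatocyte marker tested, was called higher by TGFβ with Pam3 (log2 0.40, adjusted p = 0.00641) and by Pam3 with TGFβ (log2 0.65, adjusted p = 7.25e-05). The neutrophil list summed to 481 to 513 CPM per untreated library, 94.1 to 96.1 CPM with TGFβ, 521 to 546 CPM with Pam3 and 67.5 to 75.9 CPM with both agents, and nearly all of this was the collagenase Mmp8. Mmp8 fell with TGFβ (log2 -2.44, adjusted p = 2.15e-23), as did S100a8 (log2 -2.17, adjusted p = 2.30e-13). S100a9 was called higher (adjusted p = 0.00498) at 0.114 to 0.526 CPM in untreated and 0.655 to 1.38 CPM in TGFβ libraries. Camp was also called higher (adjusted p = 0.0126) at no more than 0.198 CPM in these libraries. With Pam3 present, TGFβ gave 0 of the 6 called higher and 2 lower, beside 21.5% and 23.8% of all tested genes, with a median of 0.24. The part of these markers, and of those of the other cells above, in the results on the members was not tested.

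Likeness of pattern over the 12 libraries was measured by the root mean square difference of centred log2 CPM. Among the members themselves, Ear2 and Ear10 were closest (0.0990). Outside the members, and leaving out provisional gene names, the 3 genes most like each were sought. For Ear2 these were Sh2b2 (0.0695), Gramd4 (0.109) and Cttnbp2nl (0.113), and for Ear10 Abhd15 (0.0888), Rogdi (0.103) and Sh2b2 (0.120), so Sh2b2 was near both. Ear1 had no gene as close, its nearest being Vash1 (0.274), Trp53i11 (0.299) and Lif (0.300). The nearest to Ear6 were Cryzl1 (0.102), Dnmbp (0.117) and Slc17a9 (0.128). Chil3 had the closest matches, Aldoc (0.0550), Retreg1 (0.0578) and Abcb10 (0.0587). These values describe likeness over 12 libraries in 4 groups and carry no test.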

How the data were processed

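Raw read counts per gene and the authors' normalized values, a signal made by dividing each library's counts by a constant, were deposited for 12 libraries. Per the labels and the submitters' processing notes, the authors used FastQC 0.11.7, Bowtie2 2.4.1 with GRCm39, featureCounts (Subread 2.0.0) and DESeq2 1.36.0 with R 4.2.1; which annotation and strand setting were used is not given in the sources used here. Here the deposited counts were tested with edgeR 4.0.16 in R 4.3.3 (TMM, filterByExpr with a minimum count of 10, quasi-likelihood test over all 12 libraries, Benjamini-Hochberg adjustment over 14749 genes), after the script was tested on simulated data. Alternatives were DESeq2 1.42.0, limma 3.58.1 on log2 of the normalized values plus 1, other scalings and filters, a replicate block, the compared groups alone and leaving out each library. Replicates of a group differed by more than sampling noise. Nothing states that libraries came from separate cultures, so p-values measure the spread between these libraries, which may be technical. The 6 genes and all lists (2 gene families, alternative activation, upstream factors, alveolar macrophage and other cell types) were chosen with earlier results of these data known. Named are the 6 genes, every tested gene of both family lists, the 4 most abundant genes of the next 3 lists plus Siglecf, Marco and Pparg, and the 3 genes most like each tested member; other names were added after values were seen, and a gene that the rule names is not reported here. The GRCm39 annotation held 32481 of the 40847 symbols. Promoters came from RefSeq (GRCm38.p6). Permutation tests used SciPy 1.17.1.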

Additional observations from a re-analysis of the deposited data

Results flagged for a closer look

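For 3 genes the response to Pam3 differed between cells with and without TGFβ by the interaction test of edgeR's quasi-likelihood fit. The response with TGFβ minus that without was -0.63 on the log2 scale for Ear1 (adjusted p = 0.000958), -0.57 for Ear2 (adjusted p = 2.74e-06) and -0.39 for Ear10 (adjusted p = 0.0203). The Ear10 call was lost on leaving out untreated library 3 (adjusted p = 0.0723), TGFβ library 1 (0.0513) or Pam3 library 3 (0.0710). In Ear1 the groups without TGFβ overlapped, with 4.21 to 5.68 CPM under Pam3 and 4.84 to 5.26 CPM untreated, whereas with TGFβ all 3 Pam3 libraries were below all 3 others.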

How the results depend on the processing

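The number of members called, the number of all genes called and the Ear sum stayed within 1.5 times their main values in all 208 alternative values. The Ear sum was recomputed only on the authors' normalized values and without Ear14. Ear14 had 0 counts, so leaving it out could not change the sum. Of the fold changes of the 5 tested members, 485 alternative values kept direction and side of the threshold, 3 lost the call and 7 changed sign. The 3 lost calls are those of the Ear10 interaction given with it. All 7 sign changes came from leaving out a library and concern values that were never called: the Pam3 response without TGFβ ranged from -0.12 to 0.10 for Ear1 and from -0.14 to 0.07 for Ear6, and the Ear6 interaction from -0.15 to 0.06. Singly, these were 0.02 and 0.10 for Ear1 without untreated library 1 and Pam3 library 1, 0.07, 0.06 and 0.02 for Ear6 without untreated library 3 and Pam3 libraries 1 and 2, and 0.01 and 0.06 for its interaction without untreated library 1 and Pam3 library 3. The interaction was called for 2 to 3 members over these fits. Upper-quartile scaling gave 2477 genes higher and 3489 lower for Pam3 with TGFβ (main 3008 and 2670), and 1255 and 1097 for the interaction (main 1516 and 836). The larger direction also changed for Pam3 without TGFβ under that scaling (1299 and 1495, main 1419 and 1278) and for TGFβ with Pam3 on genes with at least 10 counts in every library (3261 and 2903, main 3165 and 3514), and narrowly without untreated library 1 for Pam3 with TGFβ (2845 and 2865) and without untreated library 3 for Pam3 without TGFβ (1321 and 1348); the cause was not tested. Same-numbered libraries of different groups had residual correlations from -0.174 to 0.300 (median 0.0614, 18 pairs). Not every same-numbered pair was over 0.1, and no label says that a number marks a shared batch. The numbers were therefore not taken to pair the libraries. All pairs of libraries numbered 3 were positive, from 0.0332 to 0.300. Differently numbered libraries had a wider range, from -0.397 to 0.323 (median -0.0578, 36 pairs). A replicate block cannot absorb deviations shared across numbers, and the source of these was not tested. With the replicate block, 5, 5, 2, 4 and 3 members were called in the comparisons in the order given, and 7562 against 7518 of all genes for TGFβ without Pam3. Exact sequence sharing limits how far Ear1, Ear2 and Ear10 can be separated, and low counts limit Chil1.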
